A study of Homo sapiens with 4 samples.

Results

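The 8 genes described here encode the hypoxia-inducible factors, the hydroxylases that sense oxygen and the ubiquitin ligase subunit VHL. The genes are HIF1A, EPAS1, ARNT, EGLN1, EGLN2, EGLN3, VHL and HIF1AN. They were followed in the m6A-seq peak lists of the RPMI-8226 line, established from human multiple myeloma, by taking every peak that the authors' tables assign to one of these symbols. Of the 8 genes, 7 had listed peaks, among 12792 genes with a peak in either list. They held 22 of the 24626 peaks listed for cells with a short hairpin RNA against ALKBH5 (labelled shALKBH5) and 22 of the 22448 peaks listed for cells with the hairpin labelled shNC. All cells had been transduced with lentivirus, poly(A) RNA was purified from total RNA, and each condition gave 1 library from RNA pulled down by an anti-N6-methyladenosine (m6A) antibody (IP) and 1 input library. With 1 pair of libraries per condition there was no replicate and no test between conditions, and the depth of the libraries is unknown because the tables hold no read counts.

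Hypoxia-inducible factors are dimers of an oxygen-regulated alpha subunit, HIF1A or EPAS1, and the constant partner ARNT. When oxygen is present, the prolyl hydroxylases EGLN1, EGLN2 and EGLN3 modify the alpha subunit, the VHL protein binds the hydroxylated form as the recognition subunit of a ubiquitin ligase, and the factor is degraded. HIF1AN, also called FIH, hydroxylates an asparagine of the alpha subunit and so keeps the coactivators EP300 and CREBBP from binding. ALKBH5, which removes m6A from RNA, belongs to the same wide class of enzymes as the EGLN proteins and HIF1AN, since all use iron, oxygen and 2-oxoglutarate, and ALKBH5 is itself known as a target gene of hypoxia-inducible factor. Plasma cells and myeloma grow in bone marrow, a tissue with regions of low oxygen.

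A listed peak carries a fold, the ratio of immunoprecipitated RNA over input within the peak, and a log10 p, which is more negative for a stronger peak. Both are the authors' own values from their deposited tables, each from 1 pair of libraries, and they are set side by side here without a claim that they changed. ALKBH5 had 3 peaks in each list, but folds say nothing of RNA amount, so the efficiency of the hairpin could not be read from these tables. Among genes that mark plasma cells, SDC1, IRF4, PRDM1, XBP1, MZB1 and CD38 had peaks in both lists and TNFRSF17 and SLAMF7 in neither. Of 6 genes chosen as markers of other cell types, CD3E, CD14, LYZ and COL1A1 had no listed peak. CD8A had 1 weak peak in the shALKBH5 list alone and PECAM1 had 2 peaks in each list. Whether these 6 genes are specific to other cell types was not tested.

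Short stretches of RefSeq sequence are shown for 3 genes because the gene start is where the lists differed at HIF1A, where the peak borders differed at EGLN1, and where EPAS1 carries the same core motif without a peak. The motif searched was GGACN with N other than G, a form of the consensus around m6A, within the first 50 transcribed bases. Capitals mark the motif in HIF1A and EPAS1, and in EGLN1 they mark the bases inside the shALKBH5 peak. All are written in the direction of transcription (GRCh38.p14).
HIF1A, chr14:61695527-61695556, plus strand: cctcgtctgaggGGACAggaggatcaccct
EPAS1, chr2:46297407-46297436, plus strand: acactcgcgagcGGACCgccacacgggtcc
EGLN1, chr1:231422238-231422267, minus strand: atgCCCTGCGCTCCTCCACAGCCTGGGCCG
In HIF1A the motif GGACA begins at base 27 of the transcript as RefSeq starts it, and all 50 bases of that window lay inside the shALKBH5 start peak and none inside a shNC peak. In EPAS1 the motif GGACC begins at base 13, and no base of the window lay inside a peak of either list. In EGLN1 the window holds no such motif on the sense strand, and 27 of its 50 bases lay inside the shALKBH5 peak, against 0 inside the shNC peak. The bases of the HIF1A and EGLN1 start peaks beyond these windows were not searched. Of 35116 such windows in the RefSeq promoter table, 14.5% hold the motif on the sense strand and 14.0% on the antisense strand, so a match is common and marks no proven site. In all, 9 windows were at hand, for ARNT, EGLN1, EGLN2, EGLN3, EPAS1, HIF1A and HIF1AN. Only the HIF1A and EPAS1 windows shown above hold the motif on the sense strand. The other HIF1A window, chr14:61697712-61697761, holds no motif, and no base of it lay inside a peak of either list.

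Most peaks of these genes stood in both lists at the same places. Of the 22 shALKBH5 peaks, 20 (90.9%, exact 95% binomial interval 70.8 to 98.9%) shared at least 1 base with a shNC peak, and of the 22 shNC peaks, 20 (90.9%, 70.8 to 98.9%) shared one with a shALKBH5 peak. The remaining 2 peaks of each list had no partner, which is 9.09% of each (1.12 to 29.2%). Across the whole lists, 19.8% of shALKBH5 peaks and 12.6% of shNC peaks had no partner, and both values lie inside the interval of the members. The intervals cover counting error only and treat peaks as independent, though several come from the same gene. The shares of both lists rest on the same 20 overlapping pairs, so they are not separate results. The shALKBH5 peaks without a partner were at the start of HIF1A and inside HIF1AN, and the shNC peaks without a partner were both in EPAS1. All 7 genes that had any peak were listed in both conditions. Across the series, 83.0% of such genes stood in both lists, 11.5% in the shALKBH5 list alone and 5.5% in the shNC list alone.

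**Figure D1:**
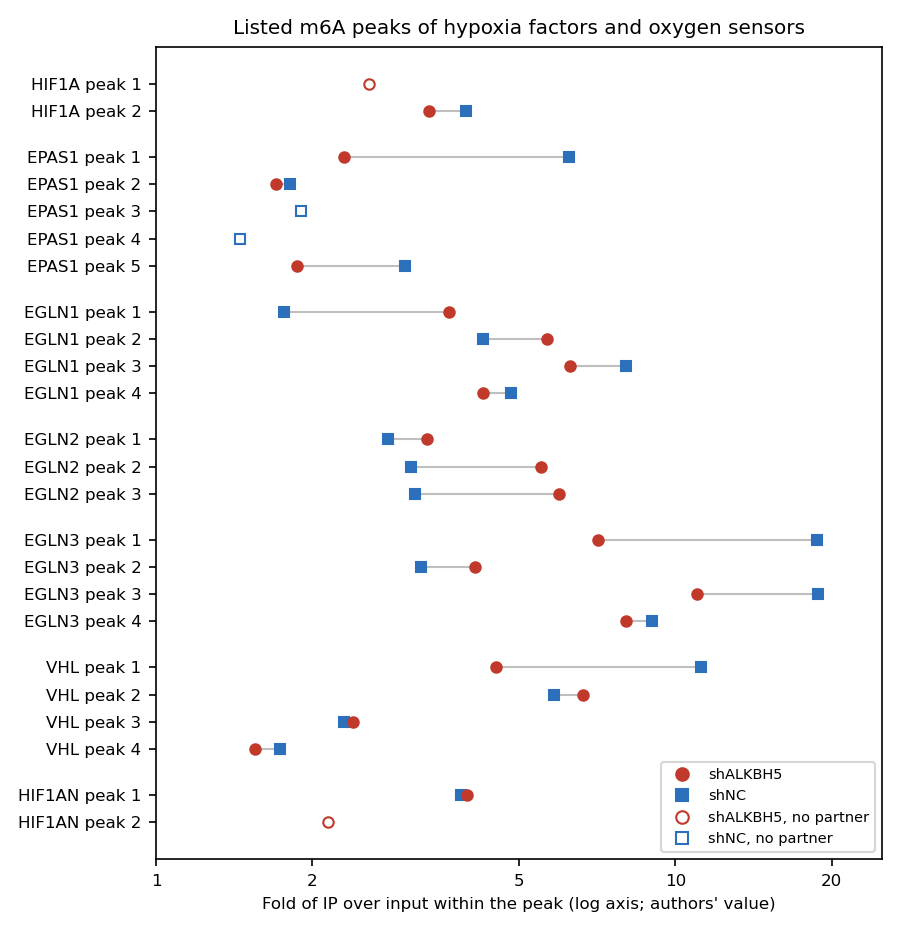
Fold of immunoprecipitated RNA over input (log axis) of each listed peak, with peaks of a gene numbered in the direction of transcription, red circles for shALKBH5, blue squares for shNC, a grey line joining peaks that share bases, and open symbols for peaks without a partner. There are 20 joined pairs and 4 open symbols, and the folds run from 1.55 to 11 for shALKBH5 and from 1.45 to 18.8 for shNC; no error can be given, as each value comes from 1 pair of libraries.

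HIF1A (ENSG00000100644, RefSeq span chr14:61695513-61748258, plus strand) encodes the alpha subunit of the factor that responds to acute loss of oxygen. Its main peak lay at the same place in both lists, 45317 bases from the gene start, ending 7129 bases before the gene end for shALKBH5 and 7099 bases for shNC. In the shALKBH5 list this peak spanned chr14:61740830-61741129, with a fold of 3.35 at a log10 p of -68.2. In the shNC list it spanned chr14:61740830-61741159, with a fold of 3.95 at a log10 p of -84.9. By p it stood among the strongest 21.5% of shALKBH5 peaks and the strongest 19.1% of shNC peaks. The shALKBH5 list alone held a second HIF1A peak of 121 bases at chr14:61695513-61695633, which begins at the first base of the RefSeq span. This start peak had a fold of 2.57 at a log10 p of -6.07, an FDR of 6.76e-06, and ranked at 72.8% of its list by p. The nearest HIF1A peak of the shNC list was 45196 bases away. The antisense gene HIF1A-AS1 overlaps this start and HIF1A-AS3 overlaps the main peak in the RefSeq annotation, no peak of the span carried any name other than HIF1A, and no source used here states whether the libraries keep strand, so reads of HIF1A and these antisense genes cannot be told apart.

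EPAS1 (ENSG00000116016, span chr2:46297407-46386697, plus strand) encodes the other alpha subunit, HIF-2-alpha, which is best known from endothelium and kidney. It had 3 listed peaks for shALKBH5 and 5 for shNC, all in the last part of the gene. Its highest shALKBH5 fold, 2.30, was the lowest such value among the 7 genes. The shNC list did not show this order. There its highest fold, 6.24, was above those of HIF1A (3.95), HIF1AN (3.86) and EGLN2 (3.15). It was below those of EGLN1 (8.03), VHL (11.2) and EGLN3 (18.8). The first shared peak, at chr2:46380219-46380369 for shALKBH5 and chr2:46380189-46380399 for shNC, had folds of 2.30 for shALKBH5 and 6.24 for shNC and log10 p values of -7.27 for shALKBH5 and -20.5 for shNC. The second, chr2:46384758-46384878 in both lists, had folds of 1.70 for shALKBH5 and 1.81 for shNC, at -4.69 for shALKBH5 and -5.00 for shNC by log10 p. The last, ending at base 46386374 in both lists and 323 bases before the gene end, had folds of 1.87 for shALKBH5 and 3.02 for shNC, with log10 p values of -8.65 for shALKBH5 and -19.9 for shNC. At each of the 3 shared places the shALKBH5 fold was the smaller number, and at the outer pair the shALKBH5 peak was also the shorter. The 2 shNC peaks without a partner were at chr2:46385476-46385596, with a fold of 1.90 at a log10 p of -5.93, and at chr2:46385985-46386075, with a fold of 1.45 at a log10 p of -2.72. The 91-base peak with log10 p -2.72 had an FDR of 0.011 and ranked at 98.7% of the shNC list by p, near the end of what the authors listed. It lay 118 bases from the last shALKBH5 peak, and the other shNC peak without a partner lay 597 bases from one.

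ARNT (span chr1:150809713-150876599, minus strand), the common partner subunit, had no listed peak in either condition, and no peak of another gene lay in its span. The tables hold no input level, so an unlisted gene can be without m6A or without enough RNA to call a peak, and these cannot be told apart.

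Of the 3 prolyl hydroxylases, EGLN3 had the strongest peaks, EGLN1 and EGLN3 had 4 peaks each and EGLN2 had 3, the same number in both lists. EGLN3 (ENSG00000129521, span chr14:33924227-33951074, minus strand) is the hydroxylase whose gene is most strongly induced by hypoxia in many cells. Its peak near the gene end, at chr14:33924949-33925786 for shALKBH5 and chr14:33924889-33925786 for shNC, had folds of 8.04 for shALKBH5 and 9.03 for shNC and log10 p values of -201 for shALKBH5 and -252 for shNC. These place it in the strongest 8.04% of the shALKBH5 list and 6.72% of the shNC list, the best rank by p among the 22 peaks of each list. A long peak near the gene start, of 1137 bases for shALKBH5 and 988 bases for shNC, had folds of 11 for shALKBH5 and 18.8 for shNC, the highest of any member peak in either list. Its log10 p was -77.5 for shALKBH5 and -102 for shNC. Another peak, closer to the start, had folds of 4.11 for shALKBH5 and 3.23 for shNC, at -83.7 for shALKBH5 and -69.5 for shNC by log10 p. No order of the lists was thus common to the EGLN3 peaks. The fourth EGLN3 peak lay outside the RefSeq span, 34140 bases upstream of it for shALKBH5 and 34170 bases for shNC. It had folds of 7.11 for shALKBH5 and 18.7 for shNC, and log10 p values of -9.76 for shALKBH5 and -9.28 for shNC. In the shNC list this peak was spliced, with 268 bases joined to 2 bases across a gap of 1499 bases, so the gene model behind it reaches beyond the RefSeq span used here.

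EGLN1 (ENSG00000135766, span chr1:231363756-231422287, minus strand) encodes the hydroxylase that sets HIF1A levels in most cells at normal oxygen. Of its 4 peaks, 3 lay in the first stretch of the transcript and 1 lay 2386 bases before the gene end. The peak toward the end had the same borders in both lists, chr1:231366142-231366441, with folds of 4.26 for shALKBH5 and 4.82 for shNC and log10 p values of -29.6 for shALKBH5 and -30.1 for shNC. The peak nearest the start began 23 bases from it for shALKBH5, with 210 bases, a fold of 3.66 at a log10 p of -17.8. For shNC it began 83 bases from the start, with 120 bases, a fold of 1.76 at a log10 p of -4.58. It therefore stood in both lists, but the shALKBH5 peak extended beyond the shNC peak on both sides. The next EGLN1 peak had folds of 5.66 for shALKBH5 and 4.27 for shNC, at -37.7 for shALKBH5 and -30.5 for shNC by log10 p. The one after it was spliced at the same junction in both lists, between bases 231420343 and 231420998 of chromosome 1, with folds of 6.28 for shALKBH5 and 8.03 for shNC and log10 p values of -31.7 for shALKBH5 and -28.6 for shNC.

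EGLN2 (ENSG00000269858, span chr19:40799191-40808434, plus strand) encodes the hydroxylase whose expression is least tied to hypoxia. The first of its 3 peaks, 1151 bases from the gene start, had folds of 3.33 for shALKBH5 and 2.80 for shNC, at -23.7 for shALKBH5 and -17.4 for shNC by log10 p. The second, at chr19:40800761-40801239 for shALKBH5 and chr19:40800970-40801269 for shNC, had folds of 5.50 for shALKBH5 and 3.10 for shNC and log10 p values of -56.9 for shALKBH5 and -30.2 for shNC. The third, ending 1 base before the gene end in both lists, had folds of 5.97 for shALKBH5 and 3.15 for shNC and log10 p values of -48.7 for shALKBH5 and -16.3 for shNC. All 3 shared EGLN2 peaks had the larger fold value and the stronger p in the shALKBH5 table. The authors' tables list the same 3 places again under RAB4B-EGLN2, a read-through gene that contains EGLN2, with folds of 3.85, 5.40 and 5.49 for shALKBH5 and 4.01, 3.04 and 3.23 for shNC. At the first place the read-through entry had the smaller fold value for shALKBH5, unlike the EGLN2 entry. These are the same stretches of RNA counted for a pair of gene names, and the reads of EGLN2 and RAB4B-EGLN2 cannot be separated.

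**Figure D2:**
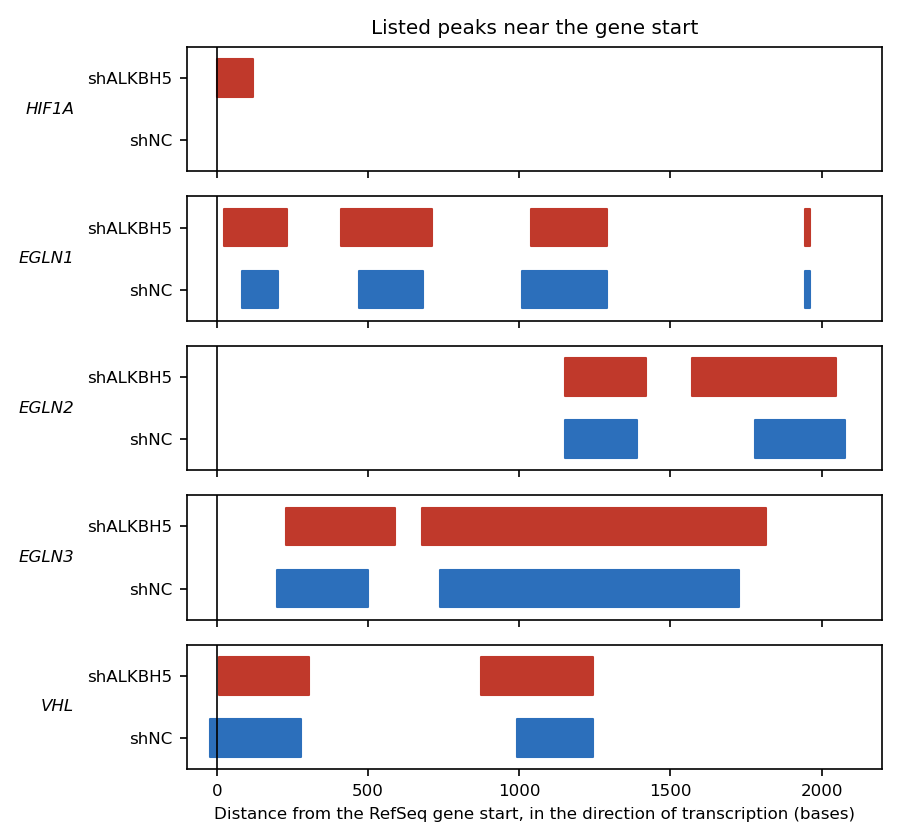
Position of listed peaks in about the first 2 kb after the RefSeq gene start (vertical line at 0, negative values upstream) for the 5 genes with a peak there, red above for shALKBH5 and blue below for shNC, each bar drawn to scale and spliced peaks shown by their blocks. The HIF1A start peak stands in the shALKBH5 row alone, and each peak of EGLN1, EGLN2, EGLN3 and VHL faces a peak of the other list.

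VHL (ENSG00000134086, span chr3:10141778-10153667, plus strand) had 4 peaks in each list, all shared. The peak at the gene start, chr3:10141785-10142083 for shALKBH5 and chr3:10141755-10142054 for shNC, had folds of 4.52 for shALKBH5 and 11.2 for shNC and log10 p values of -87.1 for shALKBH5 and -64.8 for shNC. The fold was thus the smaller number for shALKBH5 while its p was the stronger, so the authors' measures point in opposite directions here. The same held for the spliced EGLN1 peak and for the EGLN3 peak upstream of its span. The second VHL peak was spliced, and in both lists its blocks met at bases 10143021 and 10146514 of chromosome 3, across a gap of 3492 bases. Its first block had 371 bases for shALKBH5 and 252 bases for shNC, its folds were 6.65 for shALKBH5 and 5.84 for shNC, and its log10 p values were -40.0 for shALKBH5 and -33.1 for shNC. VHL is known to have a cryptic exon inside its first intron that some transcripts join to the exon that follows. No exon annotation was used here, so whether this block is that exon was not tested. The 2 peaks farther along had folds of 2.39 and 1.55 for shALKBH5, against 2.30 and 1.73 for shNC, with log10 p values of -37.5 and -7.64 for shALKBH5 and of -31.4 and -9.58 for shNC. The last had the same borders in both lists, chr3:10150458-10150577.

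HIF1AN (ENSG00000166135, span chr10:100535943-100559998, plus strand) had a shared peak in the middle of its span, at chr10:100548119-100548389 for shALKBH5 and chr10:100548119-100548359 for shNC. Its folds were 3.97 for shALKBH5 and 3.86 for shNC, and its log10 p values -31.8 for shALKBH5 and -25.0 for shNC. The shALKBH5 list held another peak at chr10:100548689-100548839, with fold 2.14, a log10 p of -6.46 and an FDR of 2.82e-06. This HIF1AN peak lay 329 bases from the nearest shNC peak and ranked at 70.8% of its list by p.

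Peaks that stood in 1 list alone were weak by p in these genes. All 4 lay in the weaker 50% of their list, which held 7 of the 22 shALKBH5 peaks and 6 of the 22 shNC peaks. In the weaker 50% of the whole lists, 38.2% of shALKBH5 peaks and 24.8% of shNC peaks had no partner, against 1.53% of shALKBH5 peaks and 0.462% of shNC peaks in the stronger 50%. Among the 20 shared pairs, 3 had the same borders in both lists and a further 8 had 1 border in common. The shALKBH5 peak was the longer in 10 pairs, the shNC peak in 6, and 4 were equal. Between 56.4% and 100% of the bases of each shALKBH5 peak were shared, and between 71.6% and 100% of each shNC peak. The fold was the larger number for shALKBH5 in 9 pairs and for shNC in 11, so the pairs had no common order. This tally counts pairs, several of them from the same gene, which are not replicates, and it says nothing of the genes as such.

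Within their own list, most of these peaks lay in the stronger 50% by p and in the lower 50% by fold. The strongest 25% by p held 6 of the 22 shALKBH5 peaks and 5 of the 22 shNC peaks, near that 25% share. The lists have most of these places in common, so their counts are not independent. Of the 22 shALKBH5 peaks, 15 (68.2%) were in the stronger 50% by p and 4 (18.2%) in the upper 50% by fold. Of the 22 shNC peaks, 16 (72.7%) were in the stronger 50% by p and 5 (22.7%) in the upper 50% by fold. Among the peaks in the stronger 50% by p, 12 of 15 for shALKBH5 (80.0%) and 12 of 16 for shNC (75%) had a fold in the lower 50% of the list, against 41.6% of all shALKBH5 peaks and 40.6% of all shNC peaks of that strength. The median fold of the member peaks was 4.04 for shALKBH5 and 3.55 for shNC, and over the whole lists it was 6.64 for shALKBH5 and 6.54 for shNC. The peaks above the median fold were mostly those of EGLN3, with 3 of its 4 peaks in each list. These are descriptions of 1 list per condition, and whether RNA abundance goes with them was not tested, since the tables hold no input level.

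**Figure D3:**
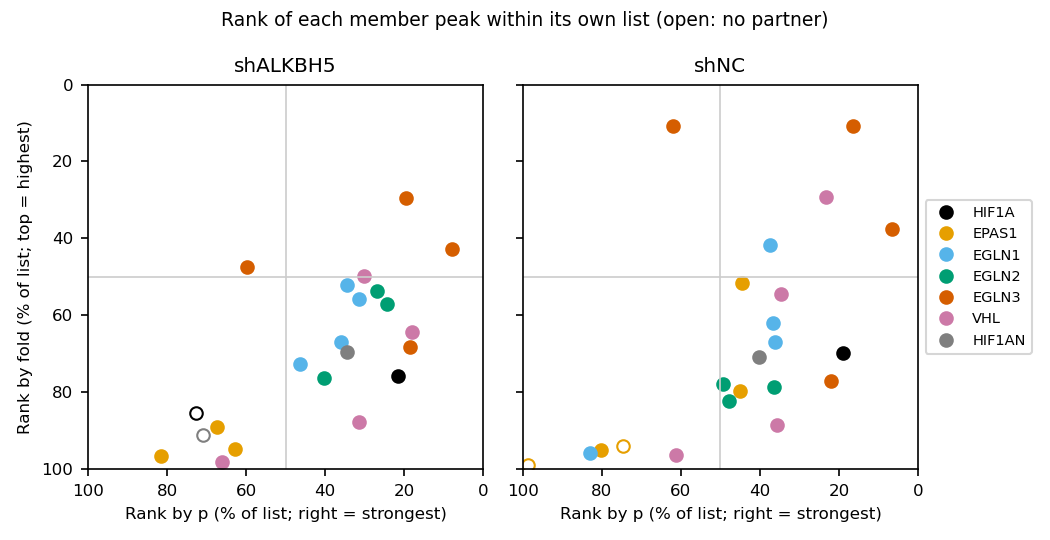
Rank of each member peak by p (horizontal, strongest at the right) and by fold (vertical, highest at the top), as a percentage of its own list, with shALKBH5 at the left and shNC at the right, colours for genes and open circles for peaks without a partner. In both panels 12 peaks lie at the lower right, in the stronger 50% by p with a fold in the lower 50%, and the open circles lie at the lower left.

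By position, 5 of the 21 shALKBH5 peaks placed on a RefSeq span began upstream of or within 500 bases of the gene start, against 4 of 21 shNC peaks, and 3 shALKBH5 and 4 shNC peaks ended within 1000 bases of the gene end. The start peaks belonged to EGLN1 (2 in each list), EGLN3, VHL and, for shALKBH5 alone, HIF1A. Over all placed peaks, 14.5% for shALKBH5 and 11.4% for shNC lay at the gene start, and 22.0% for shALKBH5 and 23.0% for shNC at the gene end. Among all placed peaks without a partner, 27.1% of those listed for shALKBH5 and 12.7% of those listed for shNC lay at the gene start. Of the member peaks without a partner, 1 of 2 for shALKBH5 and 0 of 2 for shNC did so, numbers too small to set against those shares.

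Other genes of the pathway, taken from a list of 17 partners and regulators, were mostly listed in both conditions. Of these, 12 had peaks in both lists, 0 in the shALKBH5 list alone, 1 in the shNC list alone and 4 in neither. Of the 13 with any peak, 92.3% were thus in both lists, beside 83.0% of all genes with a peak, of which 11.5% stood in the shALKBH5 list alone and 5.5% in the shNC list alone. ARNT2, a relative of ARNT best known from the nervous system, was the gene of the shNC list alone, with a fold of 17.8 at a log10 p of -4.52 at chr15:80594172-80594381. The strongest peaks by p belonged to SIAH2, a ubiquitin ligase that degrades prolyl hydroxylases, with folds of 10.3 for shALKBH5 and 14.2 for shNC. CITED2, an inhibitor that competes with HIF alpha subunits for the coactivators, followed with 6.77 for shALKBH5 and 7.89 for shNC. The coactivators EP300 and CREBBP had folds of 12.6 and 15.4 for shALKBH5, against 16.2 and 19.6 for shNC, at their strongest peak of each list, which for CREBBP were different peaks. The elongin genes ELOB and ELOC, whose products link VHL to its ligase, had no listed peak, whereas the scaffold CUL2 and the ring protein gene RBX1 had peaks in both lists. HIF3A and WTIP had none. Of the peaks of these 17 genes, 3 of 30 for shALKBH5 (10.0%) and 1 of 28 for shNC (3.57%) had no partner, beside 19.8% of all shALKBH5 peaks and 12.6% of all shNC peaks.

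Of 44 known target genes of the factors, 21 had peaks in both lists, 4 in the shALKBH5 list alone, 1 in the shNC list alone and 18 in neither. Of the 26 with any peak, 80.8% were in both lists, close to the 83.0% over all genes with a peak, and the 4 and 1 genes of a single list stand beside series shares of 11.5% for shALKBH5 alone and 5.5% for shNC alone. CXCR4, a chemokine receptor that holds plasma cells in bone marrow, had the strongest peak, with folds of 12.4 for shALKBH5 and 14.2 for shNC. DDIT4, an inhibitor of mTORC1 signalling, had 11.9 for shALKBH5 and 10.8 for shNC. The glucose transporter gene SLC2A1 had 6.90 for shALKBH5 and 5.84 for shNC, and the lactate exporter gene SLC16A3 had 10.5 for shALKBH5 and 11.7 for shNC. The genes of the shALKBH5 list alone were CCNG2 (fold 15.4), KDM4C (8.60), LOX (7.69) and LDHA (3.45), each given at its strongest peak by p, with log10 p values from -3.59 to -5.96. BNIP3, a mitophagy receptor, was the gene of the shNC list alone, with a fold of 12.5 at a log10 p of -4.02. Of the target peaks, 9 of 38 for shALKBH5 (23.7%) and 6 of 37 for shNC (16.2%) had no partner, near the 19.8% of all shALKBH5 peaks and 12.6% of all shNC peaks. At a gene start lay 6 of these 9 for shALKBH5, against 1 of these 6 for shNC, where the shares over all placed peaks without a partner were 27.1% for shALKBH5 and 12.7% for shNC. These counts are small, and nothing particular to the target genes is read from them. The 6 for shALKBH5 were at CCNG2, KDM4C, LOX, LDHA, PFKP and TFRC, named after their values were seen. LDHA has processed pseudogenes that can share its reads.

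**Figure D4:**
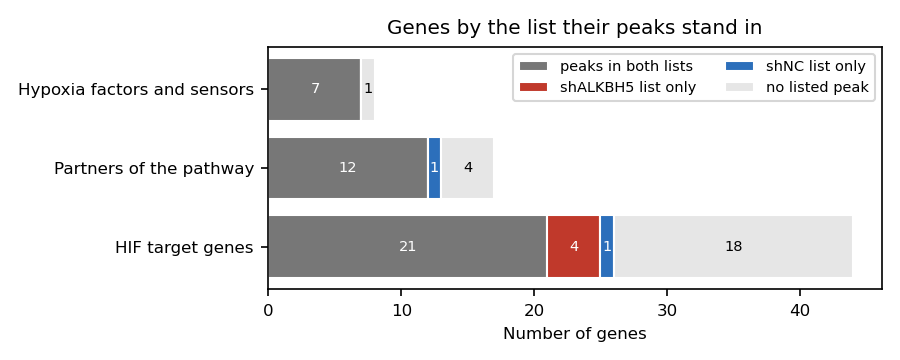
Number of genes with peaks in both lists, in the shALKBH5 list alone, in the shNC list alone and in neither, for the 8 hypoxia factors and sensors, 17 partners of the pathway and 44 target genes. Peaks in both lists are the largest class in each group, with 7, 12 and 21 genes.

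The members with the most peaks over both lists were EPAS1, EGLN1, EGLN3 and VHL, with 8 each. Genes with the same number of peaks in each list and the nearest ranks of their best peak by p, summed over the 2 lists as a share of list length, were TMX4, MBD1 and ZC3H4 for EGLN3 (distances 0.00474 to 0.0149), TOP3A, TMCC2 and BCL9 for VHL (0.00968 to 0.03) and MAGI1, BRPF3 and TTC3 for EGLN1 (0.0173 to 0.0221), each of 277 candidates. For EPAS1, with 3 and 5 peaks, the nearest of 30 candidates were KCNN3, TRIM4 and AC012313.3, at larger distances of 0.159 to 0.24. With 2 lists this likeness describes strength and number of peaks and nothing more.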

How the data were processed

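Per the labels' protocols, poly(A) RNA of RPMI-8226 cells was used as 1 input and 1 anti-m6A library per condition, 4 libraries in all. Coordinates are on hg38, and HOMER 4.9.1, BWA 0.7.12 and fastp 0.19.11 were used, per the submitters' processing notes, which assign them no step. No source used here names the peak caller. Each condition has 1 list deposited by the authors, with a fold (ratio of IP over input), a p-value, and log10 p and log10 FDR columns that were read as scores because they pass -100. The largest FDR was 0.0479 in both lists. In the FDR column, 1109 shALKBH5 and 1079 shNC cells hold a spreadsheet error. None of them belongs to a peak of these 8 genes.

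The members and gene lists were chosen with earlier results of these data known. A partner was a peak of the other list sharing at least 1 base between blocks, strand ignored, and the partner calls were tested on simulated data. Named genes were all members, list-only genes of the pathway and target lists, and the 4 strongest of each by p for shALKBH5. ELOB, ELOC, CUL2, RBX1, HIF3A, WTIP, PFKP and TFRC were named outside this rule, after their values were seen. Spans and sequences came from RefSeq GRCh38.p14, matched by symbol, which placed 88.1% of shALKBH5 and 88.4% of shNC peaks. Python 3.11.15, pandas 2.3.3, numpy 2.4.6, SciPy 1.17.1 and matplotlib 3.10.9 were used. Intervals are exact (Clopper-Pearson) and cover counting error only.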

Additional observations from a re-analysis of the deposited data

How the results depend on the processing

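Alternatives were partners on the same strand, partners within 200 bp, reciprocal overlap of 50%, a stricter fold (2 times the minimum of each list), lists of equal length by p, merging of peaks within 100 bp, genes taken from RefSeq spans, and narrower start and end windows. The share of member peaks with a partner ran from 88.9% to 90.9% for shALKBH5 and from 90.9% to 95.5% for shNC, within the counting interval, and the 7 genes with peaks in both lists stayed 7 with the stricter fold and with lists of equal length. With an end window of 500 bp, shNC member peaks at the gene end numbered 2 in place of 4. With the stricter fold, 7 pathway genes in place of 4 had no peak. The same limit left 1 shALKBH5 and 2 shNC peaks of EPAS1 and 1 shALKBH5 peak of HIF1AN, the shared one. Taking genes from spans gave EGLN2 6 peaks in each list by adding those named RAB4B-EGLN2. Merging of peaks within 100 bp gave EGLN3 3 shALKBH5 and 4 shNC peaks. With the stricter fold EGLN1 had 4 shALKBH5 and 3 shNC peaks. The equal peak numbers of EGLN1 and EGLN3 in both lists thus depend on these settings. No paired analysis was possible because each condition has 1 list. Depth is unknown, and with 1 pair of libraries per condition the spread between cultures is unmeasured, so a weak peak in 1 list alone, such as those at HIF1A and HIF1AN, has no replicate check.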
